A study of Mus musculus with 36 samples.

Results

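The genes described here are 10 well-known transcriptional targets of the glucocorticoid receptor, Fkbp5, Tsc22d3, Per1, Dusp1, Klf9, Ddit4, Zfp36, Sgk1, Glul and Cd163, measured across 12 mouse monocyte, macrophage and dendritic cell preparations. They were picked by gene name from the noncontrol probes of the arrays (Sgk1 is called Sgk there and was matched by its transcript accession). The 10 genes had 19 of 41174 probes; 18 of the 19 passed the filter on dim probes, all 10 genes were tested, and they were 10 of 17593 genes tested in all. Each group had 3 arrays, and since no label ties them to separate animals, each p-value reflects the spread among samples that may be technical repeats.

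All cells except 1 group started as monocytes sorted from bone marrow as CD11b+ Ly6C+ Ly6G-. In the groups named MΦ, sorted monocytes were grown in 10% fetal calf serum with 20 ng/ml M-CSF, and in the groups named Mreg they were grown in 10% fetal calf serum and 10% human AB serum with 5 ng/ml M-CSF. The cultures lasted 7 days, and a stimulus, where there was one, was present for the last 24 h. MΦ_M2c received 1e-07 M dexamethasone, a synthetic glucocorticoid, and was the single group given one. Mreg_+LPS and MΦ_M1 received 25 ng/ml IFN-γ and 100 µg/ml LPS, a dose given as the labels state it. Mreg_unpurified and Mreg received IFN-γ alone at 25 ng/ml, and Mreg_no IFN-γ received none. Mreg_unpurified was the exception in its starting cells, which were adherent mononuclear cells of bone marrow, spleen and blood. MΦ_M2b received IFN-γ on complexed immunoglobulin, MΦ_IFN-γ IFN-γ alone, MΦ_M2a 20 ng/ml IL-4, and MΦ_M0 nothing. Mo-DC were grown with 20 ng/ml each of GM-CSF and IL-4 in 10% fetal calf serum and received IFN-γ. Monocytes were the sorted cells without culture. Human serum and the lower M-CSF dose always came together, so the comparisons of Mreg with MΦ groups cannot tell them apart, and the glucocorticoid content of either serum is not given in the sources used here.

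The glucocorticoid receptor waits in the cytoplasm in a complex with Hsp90 and co-chaperones. Once it binds a glucocorticoid it enters the nucleus, binds glucocorticoid response elements as a dimer or meets other transcription factors on DNA, and raises genes that restrain NF-κB, AP-1 and MAP kinase signalling and that change metabolism. In macrophages, glucocorticoids are known for lowering inflammatory cytokines and for raising scavenger receptors such as CD163. Most of these 10 genes also answer other signals, among them stress kinases, growth factors, hypoxia and the circadian clock.

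The 250 bases before each annotated transcription start were read from RefSeq promoters of build GRCm38.p6, which gave 18 windows for the 10 genes. A loose form of the full response element, GNACA and TGTNC with 3 bases of any kind between them, occurred in 1 of the 18 windows, against 0.387% of 32851 mouse windows, and its single arm TGTTCT, searched on both strands, occurred in 5 windows of 3 genes, against 16.1% of mouse windows. The full element, searched in the same windows, reads the same on both strands and can overlap the single arm. Below are the windows of Sgk1 with the full element, and of Tsc22d3 and Cd163 with a single arm, shown because Tsc22d3 and Cd163 rose under dexamethasone and Sgk1 did not pass the test, and the window of Fkbp5, one of the genes with the widest dexamethasone difference, which held no match. Capitals mark every match, and each window ends at the base before the start.
Sgk1, chr10:21993640-21993889, plus strand: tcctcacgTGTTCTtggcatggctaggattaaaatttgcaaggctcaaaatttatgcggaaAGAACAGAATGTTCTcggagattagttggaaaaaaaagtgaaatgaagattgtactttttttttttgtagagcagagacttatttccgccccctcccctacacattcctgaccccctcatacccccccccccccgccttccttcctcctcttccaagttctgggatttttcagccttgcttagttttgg
Tsc22d3, chrX:140600523-140600772, minus strand: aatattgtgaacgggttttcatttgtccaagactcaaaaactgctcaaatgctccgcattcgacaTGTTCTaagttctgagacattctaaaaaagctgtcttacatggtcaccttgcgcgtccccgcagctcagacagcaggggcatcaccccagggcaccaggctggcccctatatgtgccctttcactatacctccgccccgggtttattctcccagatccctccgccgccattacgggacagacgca
Cd163, chr6:124304401-124304650, plus strand: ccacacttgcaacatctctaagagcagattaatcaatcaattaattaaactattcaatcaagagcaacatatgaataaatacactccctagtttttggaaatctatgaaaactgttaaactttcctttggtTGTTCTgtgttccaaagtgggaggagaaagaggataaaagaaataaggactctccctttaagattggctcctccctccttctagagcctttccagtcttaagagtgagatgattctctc
Fkbp5, chr17:28486150-28486399, minus strand: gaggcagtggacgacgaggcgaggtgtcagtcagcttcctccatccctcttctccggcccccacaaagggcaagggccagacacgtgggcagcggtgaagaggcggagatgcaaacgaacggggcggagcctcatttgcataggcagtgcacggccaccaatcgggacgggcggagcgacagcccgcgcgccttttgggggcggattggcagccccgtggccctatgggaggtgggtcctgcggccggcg
In the Sgk1 window the full element began 188 bases before the start and was overlapped by a single arm on each strand, with another arm 242 bases before the start. The single arm lay 185 bases before the start in the Tsc22d3 window and 119 bases before it in the Cd163 window. Sgk1 and Tsc22d3 have other starts in RefSeq. The other Tsc22d3 windows held no match, and some of the other Sgk1 windows held a single arm. The windows of Per1, Dusp1, Klf9, Ddit4, Zfp36 and Glul held no match either. The search covered only these short windows.

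Levels are given as log2 of the processed signal minus log2 of the 75th percentile of the array, so a level of 0 is the 75th percentile and a difference of 1 is a doubling of signal. On every array, 50% to 57.5% of probes were well above background. Of the 10 genes, 9 were well above background on all 36 arrays, and Cd163 on 21. The 4 comparisons this account turns on set groups of different slides against each other, so slide and the compared condition cannot be told apart there. The same holds for MΦ_M2c against Mreg_no IFN-γ, MΦ_IFN-γ against MΦ_M0 and MΦ_M1 against MΦ_IFN-γ. The interaction tests given below each contain a comparison across slides, so the same limit holds for them. Slide was tried as a random block, which cannot remove a difference between sets of slides. All 71 calls made for the 10 genes in 14 comparisons of pairs of groups had the same sign in each of the 3 series that the labels number. The calls came from these same arrays, so this agreement is no separate support for them. All 8 macrophage markers were well above background on all arrays of the cultured groups, apart from 1 marker in Mreg_unpurified. In bulk RNA, fewer cells of a type and less RNA per cell cannot be told apart.

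Dexamethasone was tested in MΦ_M2c against MΦ_M0. Of the 10 genes, 8 rose and none fell at an adjusted p below 0.05 (limma, Benjamini and Hochberg over all genes). Among all 17592 genes tested in this comparison, 9.94% rose and 20.7% changed in either direction. The median log2 difference of the 10 genes was 2.29, against 0.0165 for all genes. Fkbp5, Ddit4, Cd163 and Tsc22d3 had the widest differences, while Zfp36 and Sgk1 passed no threshold. The arrays of both groups did not overlap for 9 of the 10 genes, as for 43.3% of all genes.

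Fkbp5 encodes FKBP51, a co-chaperone that lowers hormone binding of the receptor and so closes a feedback loop. Its log2 levels on the 3 arrays were 3.77, 3.90 and 3.95 in MΦ_M2c, against -1.57, -2.01 and -1.97 in MΦ_M0. Every dexamethasone array lay far above every untreated one, a 52.8-fold difference (log2 5.72 ± 0.36 SE, adjusted p = 8.65e-12), which was the 20th largest rise among all genes.

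The 3 genes known as anti-inflammatory effectors differed among themselves. Tsc22d3 encodes GILZ, which binds and restrains NF-κB and AP-1. It was at 5.89, 5.77 and 5.95 in MΦ_M2c, against 2.62, 2.96 and 3.06 in MΦ_M0. The groups were well apart, 7.93-fold (log2 2.99 ± 0.24, adjusted p = 5.61e-10). Dusp1 encodes the phosphatase MKP-1, which switches off p38 and JNK. It was at 4.01, 4.69 and 4.43 in MΦ_M2c, against 2.56, 2.80 and 2.72 in MΦ_M0, again without overlap (log2 1.68 ± 0.25, adjusted p = 2.18e-05). Zfp36 encodes tristetraprolin, which binds AU-rich messages and promotes their decay. It was at 2.43, 3.21 and 2.96 in MΦ_M2c, against 2.37, 2.96 and 2.40 in MΦ_M0, with overlapping arrays. Its difference of 0.29 had a 95% interval of -0.16 to 0.74 and did not pass (adjusted p = 0.41).

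Both transcription regulators among the 10 rose. Per1 is a core repressor of the circadian clock, and its log2 levels of 2.98, 3.03 and 3.04 in MΦ_M2c stood against 0.94, 0.83 and 0.86 in MΦ_M0 (log2 2.14 ± 0.20, adjusted p = 1.34e-08). Klf9 encodes a Krüppel-like factor that acts in feedback on glucocorticoid responses. It was at 2.48, 2.60 and 2.33 in MΦ_M2c, against 0.22, 0.05 and -0.21 in MΦ_M0, a 5.45-fold difference (log2 2.45 ± 0.32, adjusted p = 2.60e-06). Neither gene had an untreated array near the dexamethasone arrays.

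Among the metabolic and signalling genes, Ddit4 and Glul rose and Sgk1 did not pass. Ddit4 encodes REDD1, which inhibits mTORC1. It was at 6.76, 7.55 and 7.07 in MΦ_M2c, against 1.58, 2.07 and 1.31 in MΦ_M0, a 44.4-fold difference (log2 5.47 ± 0.29, adjusted p = 3.09e-13) and the 23rd largest rise of all genes. Glul encodes glutamine synthetase and was at 4.56, 4.31 and 4.16 in MΦ_M2c, against 2.39, 2.23 and 2.12 in MΦ_M0 (log2 2.10 ± 0.27, adjusted p = 2.46e-06). The groups did not overlap for either gene. Sgk1 encodes a kinase that regulates ion transport and FOXO factors. It was at 3.67, 3.52 and 3.52 in MΦ_M2c, against 3.46, 3.31 and 3.10 in MΦ_M0. All dexamethasone arrays lay just above the untreated ones, but the difference of 0.28 was small beside its 95% interval of -0.59 to 1.15 (adjusted p = 0.74).

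Cd163, the macrophage scavenger receptor for haemoglobin bound to haptoglobin, was at 0.51, 0.03 and -0.02 in MΦ_M2c, against -2.60, -3.60 and -3.92 in MΦ_M0. The MΦ_M0 arrays were dim but above background, and the groups did not overlap (11.7-fold, log2 3.55 ± 0.97, adjusted p = 0.00899). The log2 difference was 2.08 with normexp background correction (adjusted p = 0.000559). With arrays of a single scan day it was 3.76 and no longer passed (adjusted p = 0.0905). That setting left out replicate 1 of every group, so scan day and the loss of arrays cannot be told apart there. Macrophage markers summed to 1289 to 1387 times the 75th percentile in MΦ_M2c, against 1161 to 1250 in MΦ_M0. Of the 8, 3 rose, among them Mertk, a receptor for dying cells that is itself a known glucocorticoid target and is also counted in that list (log2 2.51). The part of this shift in the results above was not tested.

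**Figure D1:**
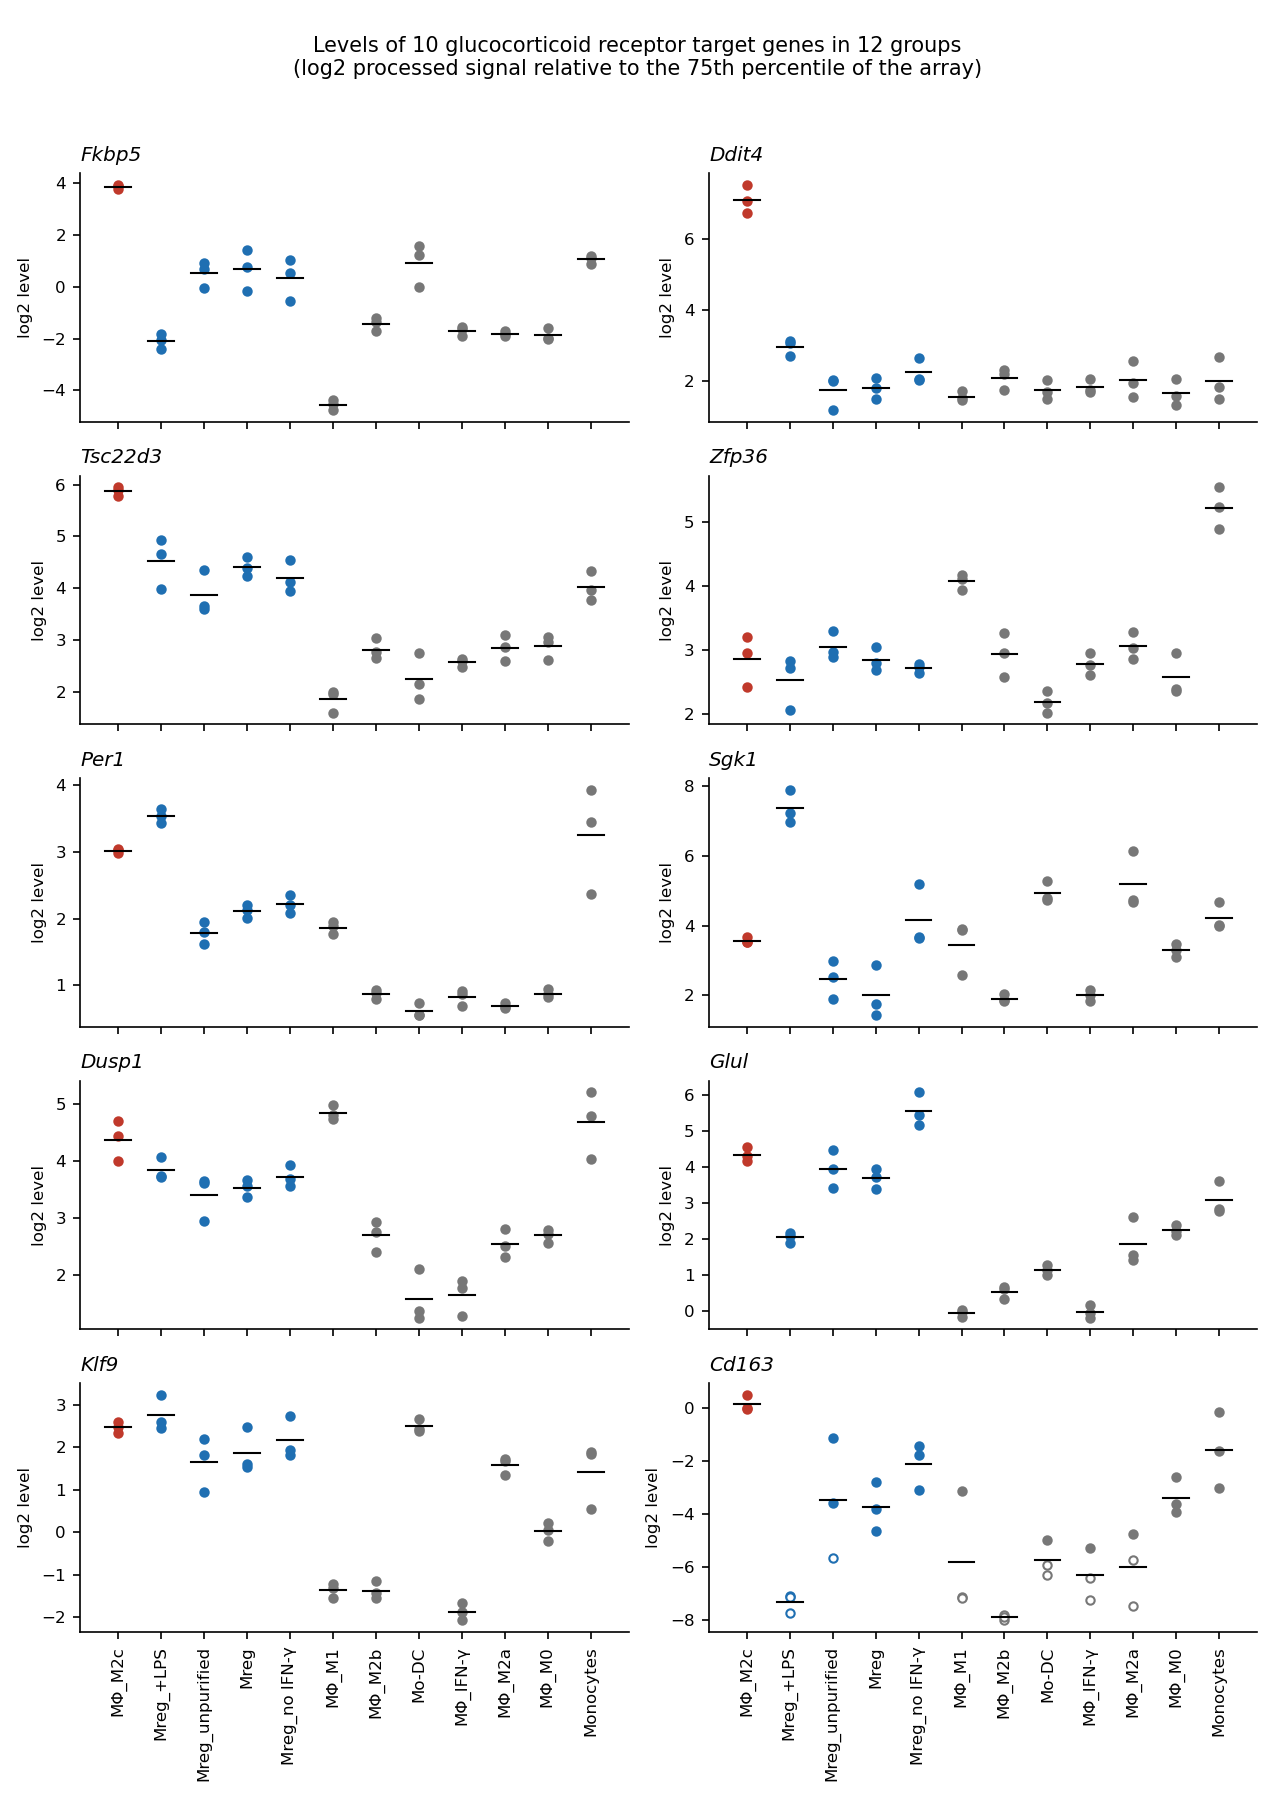
Log2 levels of each gene (vertical axis) on the 3 arrays of each of the 12 groups (horizontal axis). Points are arrays, open where the probe was not well above background, and black lines are group means. MΦ_M2c is red and the 4 Mreg groups are blue. MΦ_M2c had the highest mean for Fkbp5 (3.87), Tsc22d3 (5.87), Ddit4 (7.13) and Cd163 (0.17).

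The human-serum culture was compared with the fetal calf serum culture 3 times, each time at a matched stimulus, which were none, IFN-γ, and IFN-γ with LPS. In Mreg_no IFN-γ against MΦ_M0, 6 of the 10 genes rose and none fell, while 17.2% of all genes rose and 30.9% changed; the arrays of 7 of the 10 did not overlap, as for 50.3% of all genes. In Mreg against MΦ_IFN-γ, 7 rose and none fell, while 14.0% of all genes rose and 28.0% changed; the arrays of 7 did not overlap, as for 45.6% of all genes. In Mreg_+LPS against MΦ_M1, 7 rose and 2 fell, while 29.4% of all genes rose, 25.1% fell and 54.5% changed in all. The arrays of 9 did not overlap there, as for 58.6% of all genes. Fkbp5, Tsc22d3, Per1, Klf9 and Glul were the 5 genes higher in all 3 comparisons, as were 7.23% of all genes. These 3 comparisons share no arrays but are not independent. Their Mreg groups lay on the same slides, as did MΦ_M0 and MΦ_M1, and all shared an estimate of the spread. The median log2 differences of the 10 genes were 1.30, 1.86 and 1.89 in that order, against 0.0574, 0.0039 and 0.0469 for all genes.

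Fkbp5 was at 1.04, -0.53 and 0.55 in Mreg_no IFN-γ, against -1.57, -2.01 and -1.97 in MΦ_M0 (log2 2.20 ± 0.36, adjusted p = 3.18e-05). It was at 1.41, -0.17 and 0.78 in Mreg, against -1.63, -1.89 and -1.55 in MΦ_IFN-γ (log2 2.36 ± 0.36, adjusted p = 1.49e-05). It was at -2.40, -2.06 and -1.84 in Mreg_+LPS, against -4.54, -4.77 and -4.39 in MΦ_M1 (log2 2.46 ± 0.36, adjusted p = 1.67e-06). The human-serum arrays lay above their counterparts in each pair without overlap, with close differences of 4.60-fold, 5.14-fold and 5.52-fold. With normexp background correction the last of these was 1.14 on the log2 scale and still passed (adjusted p = 0.00518).

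Of the effectors, Tsc22d3 rose in each pair. Its log2 levels were 4.12, 4.55 and 3.94 in Mreg_no IFN-γ, against 2.62, 2.96 and 3.06 in MΦ_M0 (log2 1.32 ± 0.24, adjusted p = 8.64e-05). The differences were 1.83 ± 0.24 in Mreg against MΦ_IFN-γ (adjusted p = 1.39e-06) and 2.66 ± 0.24 in Mreg_+LPS against MΦ_M1 (adjusted p = 3.11e-10). No arrays overlapped in any of the 3 pairs. Dusp1 rose without LPS, by 1.03 ± 0.25 in Mreg_no IFN-γ against MΦ_M0 (adjusted p = 0.00254) and by 1.89 ± 0.25 in Mreg against MΦ_IFN-γ (adjusted p = 2.52e-06). With LPS the direction was the opposite, with 3.74, 4.06 and 3.72 in Mreg_+LPS, against 4.81, 4.99 and 4.73 in MΦ_M1 (log2 -1.0 ± 0.25, adjusted p = 0.00141). Zfp36 differed by 0.15 (adjusted p = 0.66) and 0.07 (adjusted p = 0.87) without LPS, neither past the threshold. It was lower with LPS, at 2.83, 2.06 and 2.73 in Mreg_+LPS, against 4.12, 4.19 and 3.94 in MΦ_M1 (log2 -1.54 ± 0.22, adjusted p = 8.99e-07). The MΦ_M1 arrays of both genes all lay above the Mreg_+LPS arrays.

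Klf9 was among the genes with the widest differences. It was at 1.94, 2.73 and 1.83 in Mreg_no IFN-γ, against 0.22, 0.05 and -0.21 in MΦ_M0 (log2 2.14 ± 0.32, adjusted p = 8.42e-06). It was at 1.53, 2.48 and 1.60 in Mreg, against -1.66, -1.87 and -2.07 in MΦ_IFN-γ, a 13.3-fold difference (log2 3.74 ± 0.32, adjusted p = 1.89e-09). It was at 2.59, 3.24 and 2.44 in Mreg_+LPS, against -1.30, -1.21 and -1.54 in MΦ_M1, a 17.2-fold difference (log2 4.11 ± 0.32, adjusted p = 2.79e-11). The low arrays of these pairs were those of the MΦ groups, and the lowest were those given IFN-γ. Per1 rose by 1.34 ± 0.20, 1.29 ± 0.20 and 1.67 ± 0.20 in the 3 pairs (adjusted p = 9.89e-06, 1.92e-05 and 6.74e-08), with no overlapping arrays.

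Glul had the widest difference of the 10 genes in Mreg_no IFN-γ against MΦ_M0, and one close to that of Klf9 in Mreg against MΦ_IFN-γ. It was at 6.08, 5.16 and 5.46 in Mreg_no IFN-γ, against 2.39, 2.23 and 2.12 in MΦ_M0, a 10.0-fold difference (log2 3.33 ± 0.27, adjusted p = 1.13e-09). It was at 3.40, 3.96 and 3.72 in Mreg, against -0.07, 0.15 and -0.19 in MΦ_IFN-γ, a 13.3-fold difference (log2 3.73 ± 0.27, adjusted p = 1.57e-10). With LPS the difference was 2.11 ± 0.27 (adjusted p = 2.06e-07), and its 3 probes gave 1.23, 2.11 and 3.73 there. Ddit4, so high with dexamethasone, differed by 0.59 in Mreg_no IFN-γ against MΦ_M0 (95% interval -0.01 to 1.20, adjusted p = 0.14) and by -0.04 in Mreg against MΦ_IFN-γ (95% interval -0.64 to 0.57, adjusted p = 0.94). It rose with LPS, at 2.71, 3.12 and 3.09 in Mreg_+LPS, against 1.51, 1.72 and 1.46 in MΦ_M1 (log2 1.41 ± 0.29, adjusted p = 0.000189). The arrays of that last pair did not overlap.

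Sgk1 differed by 0.88 ± 0.42 in Mreg_no IFN-γ against MΦ_M0 (adjusted p = 0.12) and by 0.02 ± 0.42 in Mreg against MΦ_IFN-γ (adjusted p = 0.98). With LPS it stood at 6.98, 7.90 and 7.24 in Mreg_+LPS, against 2.57, 3.90 and 3.87 in MΦ_M1, a 15.2-fold difference (log2 3.93 ± 0.42, adjusted p = 1.04e-08). All Mreg_+LPS arrays were above every other array of the study for Sgk1. Cd163 was at -3.81, -4.63 and -2.79 in Mreg, against -5.29, -6.42 and -7.23 in MΦ_IFN-γ, where 1 of 3 arrays was above background (log2 2.57 ± 0.97, adjusted p = 0.0481). That call held in 5 of 16 settings, with adjusted p from 0.0374 to 0.33, and the log2 difference was 0.67 with normexp background correction (adjusted p = 0.33). It was lost without replicate 1 or 3 of Mreg (log2 2.60 and 2.09) and without replicate 2 or 3 of MΦ_IFN-γ (log2 2.52 and 2.11). In Mreg_no IFN-γ against MΦ_M0 it differed by 1.28 (adjusted p = 0.35), and in Mreg_+LPS, where no array was above background, no fold against MΦ_M1 can be given.

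Markers of Ly6C-high monocytes differed between the cultures, and also with IFN-γ. The 4 of 5 listed markers that were tested summed to 0.472 to 0.88 in Mreg_no IFN-γ, against 11.9 to 32.7 in MΦ_M0, to 47.8 to 206 in Mreg, against 275 to 296 in MΦ_IFN-γ, and to 58.7 to 226 in Mreg_+LPS, against 276 to 339 in MΦ_M1, all relative to the 75th percentile. All 4 were above background on all arrays of these groups, except 1 that was above it on none of the Mreg_+LPS arrays. Their part in the culture differences was not tested.

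**Figure D2:**
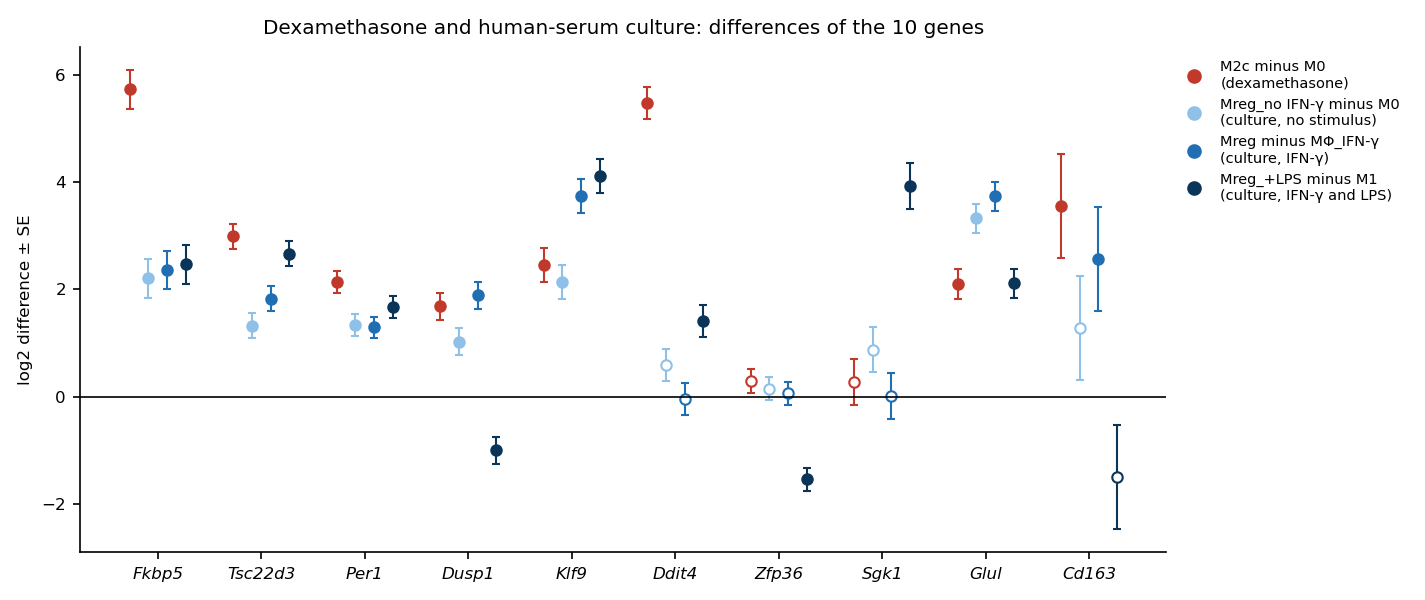
Log2 differences (vertical axis, bars are standard errors) of the 10 genes in MΦ_M2c against MΦ_M0 (red) and in the 3 comparisons of human-serum with fetal calf serum culture (blues, pale to dark for no stimulus, IFN-γ, and IFN-γ with LPS). Filled points passed an adjusted p of 0.05. Fkbp5 (5.72) and Ddit4 (5.47) stood far above their culture differences, while Klf9 and Glul reached 3.74 and 3.73 in Mreg against MΦ_IFN-γ.

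MΦ_M2c was then set against Mreg_no IFN-γ, neither of which received IFN-γ or LPS. The contrast is also the difference between their separate contrasts with MΦ_M0, which share the MΦ_M0 arrays. Of the 10 genes, 5 were higher in MΦ_M2c and 1 was lower, while 18.7% of all genes were higher, 21.9% were lower and 40.6% differed in all. The arrays of 7 of the 10 did not overlap, as for 54.2% of all genes. Ddit4 was at 6.76, 7.55 and 7.07 in MΦ_M2c, against 2.65, 2.02 and 2.07 in Mreg_no IFN-γ, a 29.5-fold difference (log2 4.88 ± 0.29, adjusted p = 2.63e-12). Fkbp5 was 11.5-fold higher (log2 3.52 ± 0.36, adjusted p = 1.71e-08), Tsc22d3 was higher by 1.67 ± 0.24 (adjusted p = 2.58e-06) and Per1 by 0.80 ± 0.20 (adjusted p = 0.00219). Arrays of these 4 genes did not overlap. Glul was the gene that was lower, at 4.56, 4.31 and 4.16 in MΦ_M2c, against 6.08, 5.16 and 5.46 in Mreg_no IFN-γ (log2 -1.23 ± 0.27, adjusted p = 0.000658). Klf9 differed by 0.31, with a 95% interval of -0.35 to 0.96 (adjusted p = 0.49), and Cd163 by 2.27, with an interval of 0.28 to 4.26 (adjusted p = 0.0636). The Dusp1 difference of 0.65 passed narrowly (adjusted p = 0.0405) and was lost without replicate 2 (log2 0.49) or 3 (log2 0.63) of MΦ_M2c and without replicate 2 (log2 0.64) or 3 (log2 0.57) of Mreg_no IFN-γ. The 4 Ly6C-high monocyte markers tested were all higher, with summed levels of 20.3 to 62.3 in MΦ_M2c, against 0.472 to 0.88 in Mreg_no IFN-γ, and their part in these differences was not tested.

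IFN-γ, an activator of macrophages, lowered several of the genes. In Mreg against Mreg_no IFN-γ, 2 of the 10 fell and none rose, while 10.9% of all genes fell and 20.4% changed. In MΦ_IFN-γ against MΦ_M0, 5 fell and none rose, while 11.2% of all genes fell and 22.2% changed. Glul fell in both cultures, by 1.87 on the log2 scale in Mreg against Mreg_no IFN-γ (adjusted p = 1.01e-05) and by 2.28 in MΦ_IFN-γ against MΦ_M0 (adjusted p = 3.43e-07). Sgk1 was at 1.43, 2.88 and 1.76 in Mreg, against 3.65, 5.20 and 3.66 in Mreg_no IFN-γ (log2 -2.15 ± 0.42, adjusted p = 0.000462). In the other culture it was at 1.85, 2.16 and 2.00 in MΦ_IFN-γ, against 3.46, 3.31 and 3.10 in MΦ_M0 (log2 -1.29 ± 0.42, adjusted p = 0.0278). Both pairs were without overlap. The 4 Ly6C-high monocyte markers tested summed to 47.8 to 206 in Mreg, against 0.472 to 0.88 in Mreg_no IFN-γ. They summed to 275 to 296 in MΦ_IFN-γ, against 11.9 to 32.7 in MΦ_M0. Their part in the IFN-γ differences was not tested.

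Klf9 fell by 1.89 and Dusp1 by 1.05 on the log2 scale in MΦ_IFN-γ against MΦ_M0 (adjusted p = 5.17e-05 and 0.00281). In Mreg against Mreg_no IFN-γ their differences were -0.29 and -0.19, neither past the threshold. Tested as interactions, the difference between both IFN-γ responses, which equals the difference between both culture effects, passed for 0 of the 10 genes, while 1.65% of all genes passed. At an unadjusted p below 0.05 the count was 2. Klf9 was the nearest, with an interaction of 1.60 ± 0.45 (adjusted p = 0.0703), and it passed without replicate 2 of Mreg_no IFN-γ (log2 1.88) and with the replicate number as a block (adjusted p = 0.0268). Cd163 fell in MΦ_IFN-γ against MΦ_M0 by 2.94 (adjusted p = 0.0281), with 1 of 3 MΦ_IFN-γ arrays above background, and with normexp background correction the log2 difference was -1.21 and still passed. In that comparison the Cd163 and Sgk1 calls were lost without some single libraries, and the count of 5 was then 3, without MΦ_IFN-γ replicate 3, MΦ_M0 replicate 1 or MΦ_M0 replicate 2.

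LPS was added to IFN-γ in both cultures. In Mreg_+LPS against Mreg, 4 rose and 3 fell, while 32.0% of all genes rose, 25.5% fell and 57.4% changed in all. In MΦ_M1 against MΦ_IFN-γ, 4 rose and 2 fell, while 27.9% of all genes rose, 23.4% fell and 51.2% changed in all. Fkbp5 fell in both cultures, to -2.40, -2.06 and -1.84 in Mreg_+LPS, against 1.41, -0.17 and 0.78 in Mreg (log2 -2.77 ± 0.36, adjusted p = 2.54e-07), and to -4.54, -4.77 and -4.39 in MΦ_M1, against -1.63, -1.89 and -1.55 in MΦ_IFN-γ (log2 -2.88 ± 0.36, adjusted p = 1.99e-07). The LPS arrays lay below all others of their pair, and the difference between both responses was 0.10 (adjusted p = 0.91). With normexp background correction the log2 differences were -2.14 in Mreg_+LPS against Mreg and -1.26 in MΦ_M1 against MΦ_IFN-γ, and their difference of -0.89 did not pass (adjusted p = 0.19). Per1 rose by 1.42 ± 0.20 in Mreg_+LPS against Mreg (adjusted p = 9.49e-07) and by 1.04 ± 0.20 in MΦ_M1 against MΦ_IFN-γ (adjusted p = 9.98e-05).

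The LPS responses of 6 genes differed between the cultures in the interaction test, which 35.0% of all genes passed. Sgk1 rose 40.8-fold in Mreg_+LPS against Mreg (log2 5.35 ± 0.42, adjusted p = 3.47e-11) and 2.71-fold in MΦ_M1 against MΦ_IFN-γ (log2 1.44 ± 0.42, adjusted p = 0.00573), an interaction of 3.91 ± 0.60 (adjusted p = 1.14e-05). Dusp1 differed by 0.31 in Mreg_+LPS against Mreg (adjusted p = 0.31) and rose 9.14-fold in MΦ_M1 against MΦ_IFN-γ (log2 3.19 ± 0.25, adjusted p = 5.19e-11), an interaction of -2.89 ± 0.36 (adjusted p = 6.50e-07). Zfp36 differed by -0.31 in the human-serum culture (adjusted p = 0.23) and rose by 1.30 ± 0.22 in the other (adjusted p = 1.47e-05), an interaction of -1.60 ± 0.31 (adjusted p = 0.000167). Both genes, a phosphatase and a message-decay factor, thus responded more to LPS in the fetal calf serum culture. With quantile normalization the Zfp36 difference in the human-serum culture was -0.54 and passed (adjusted p = 0.0314).

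Ddit4 rose by 1.18 ± 0.29 in Mreg_+LPS against Mreg (adjusted p = 0.00117) and differed by -0.27 in MΦ_M1 against MΦ_IFN-γ (adjusted p = 0.47), an interaction of 1.45 ± 0.42 (adjusted p = 0.00741). Glul fell by 1.65 in the human-serum culture (adjusted p = 9.16e-06; log2 -1.06 with the mean of its probes) and differed by -0.03 in the other (adjusted p = 0.94), an interaction of -1.62 ± 0.38 (adjusted p = 0.00156). Klf9 rose by 0.89 ± 0.32 in Mreg_+LPS against Mreg (adjusted p = 0.0187), a call lost without replicate 1 (log2 0.72) or 3 (log2 0.76) of Mreg or replicate 2 of Mreg_+LPS (log2 0.65). It was also lost with quantile normalization or the authors' deposited table (log2 0.64 in both), with arrays of a single scan day (log2 0.80) and with a fit of the compared groups alone (adjusted p = 0.0709). Tsc22d3 fell by 0.72 in MΦ_M1 against MΦ_IFN-γ (adjusted p = 0.0123), lost without replicate 1 of MΦ_M1 (log2 -0.59). Its interaction of 0.83 did not pass (adjusted p = 0.0529), but did so with the replicate number as a block (adjusted p = 0.0206) and without replicate 2 of Mreg (adjusted p = 0.0442) or replicate 1 of Mreg_+LPS (adjusted p = 0.00977). It also passed with the mean of its probes (log2 1.15, adjusted p = 0.0048), slide as a random block (adjusted p = 0.0251) and a dim-probe filter of 18 arrays (adjusted p = 0.0432). These were 6 of 22 settings. Cd163 was above background on none of the Mreg_+LPS arrays and on all Mreg arrays, so it was at least 2.46-fold lower in Mreg_+LPS (adjusted p = 0.00258), a call lost with normexp background correction (log2 -0.21). Its interaction passed as well (adjusted p = 0.0214), but without a level in each of the 4 groups its size cannot be read.

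**Figure D3:**
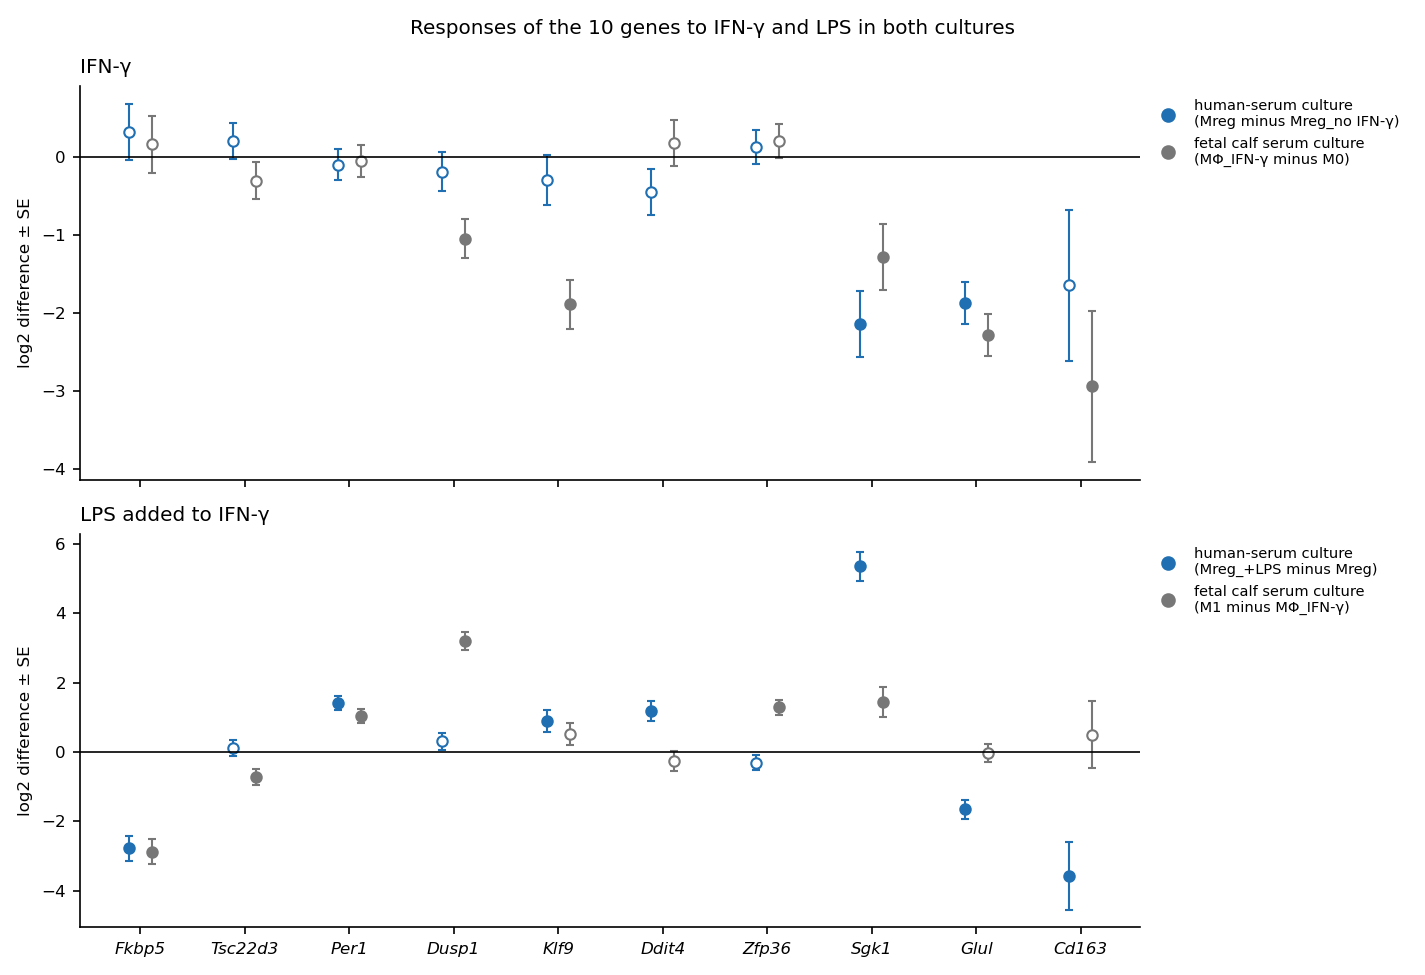
Log2 responses (vertical axis, bars are standard errors) of the 10 genes to IFN-γ (top) and to LPS added to IFN-γ (bottom), in the human-serum culture (blue) and the fetal calf serum culture (grey). Filled points passed an adjusted p of 0.05. With LPS the Sgk1 response was 5.35 in the human-serum culture and 1.44 in the other, while for Dusp1 it was 0.31 and 3.19.

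Other preparations were compared as well. IL-4 in MΦ_M2a, against MΦ_M0, raised 2 of the 10 genes and lowered none, while 6.77% of all genes rose and 12.6% changed. They were Sgk1, at 6.14, 4.69 and 4.73 in MΦ_M2a, against 3.46, 3.31 and 3.10 in MΦ_M0 (log2 1.89 ± 0.42, adjusted p = 0.00279), and Klf9 (log2 1.56 ± 0.32, adjusted p = 0.00118). The groups of neither gene overlapped, and replicate 1 was the highest MΦ_M2a array for Sgk1. With arrays of a single scan day the Sgk1 difference no longer passed (adjusted p = 0.0603). Of 6 dendritic cell markers 3 were higher, with summed levels of 118 to 224 in MΦ_M2a, against 27.3 to 52.9 in MΦ_M0, and their part in the result was not tested. Immunoglobulin complexes in MΦ_M2b, against MΦ_IFN-γ, raised Dusp1 alone of the 10 (log2 1.05 ± 0.25, adjusted p = 0.0162), while 2.18% of all genes rose and 3.96% changed. That call was lost without MΦ_IFN-γ replicate 1 (log2 0.87) or MΦ_M2b replicate 2 (log2 1.02) or 3 (log2 0.93).

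Mo-DC, against MΦ_IFN-γ, had 4 of the 10 genes higher and 1 lower, while 22.4% of all genes were higher, 25.2% were lower and 47.6% differed in all. The share of the 10 genes that differed was thus close to that of all genes. Klf9 was at 2.39, 2.66 and 2.44 in Mo-DC, against -1.66, -1.87 and -2.07 in MΦ_IFN-γ, a 20.6-fold difference (log2 4.36 ± 0.32, adjusted p = 1.51e-11). Fkbp5 was higher by 2.62 ± 0.36 (adjusted p = 1.14e-06), Sgk1 by 2.94 ± 0.42 (adjusted p = 2.14e-06) and Glul by 1.18 ± 0.27 (adjusted p = 0.00074). Zfp36 was lower by a log2 difference of -0.59 (adjusted p = 0.0262), a call lost without replicate 1 (log2 -0.59) or 3 (log2 -0.51) of Mo-DC or replicate 2 (log2 -0.50) or 3 (log2 -0.60) of MΦ_IFN-γ. Dendritic cell markers summed to 261 to 283 in Mo-DC, against 11.4 to 30.5 in MΦ_IFN-γ. Mreg_unpurified, against Mreg, had 0 of the 10 genes past the threshold in limma, and 1 at an unadjusted p below 0.05, while 6.67% of all genes rose and 5.37% fell.

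MΦ_M0, against the uncultured Monocytes, had 7 of the 10 genes lower and none higher, while 33.2% of all genes were lower and 63.4% differed. Counted in either direction, the share of the 10 genes was close to that of all genes. Zfp36 was at 2.37, 2.96 and 2.40 in MΦ_M0, against 5.24, 4.90 and 5.55 in Monocytes (log2 -2.65 ± 0.22, adjusted p = 3.01e-11). Fkbp5 fell by 2.92 (adjusted p = 7.42e-08), Per1 fell by 2.37 (adjusted p = 6.33e-11) and Dusp1 fell by 1.98 (adjusted p = 1.23e-07), all on the log2 scale. Klf9, Tsc22d3 and Glul fell by 1.41, 1.15 and 0.84, and the Glul call was lost without Monocytes replicate 3 (log2 -0.57). The Monocytes arrays also had high levels of markers listed for neutrophils and erythroid cells. Whether other cells or the monocytes themselves carried them cannot be told in bulk RNA. The 8 neutrophil markers tested summed to 3.25 to 4.53 in MΦ_M0, against 3240 to 3977 in Monocytes, and the 5 erythroid markers to 0.206 to 0.26 in MΦ_M0, against 39.6 to 80.6 in Monocytes. Their part in these falls was not tested.

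Across the 12 groups the genes ranked the preparations differently. Fkbp5 spanned 8.44 on the log2 scale, with MΦ_M2c alone at the top (3.87 ± 0.09, SD, n = 3) and MΦ_M1 alone at the bottom (-4.56 ± 0.19). Between them, Monocytes (1.07 ± 0.15), Mo-DC (0.93 ± 0.82), Mreg (0.67 ± 0.80), Mreg_unpurified (0.53 ± 0.49) and Mreg_no IFN-γ (0.35 ± 0.81) each overlapped the next, followed after a gap by MΦ_M2b (-1.43 ± 0.26), MΦ_IFN-γ (-1.69 ± 0.18), MΦ_M2a (-1.81 ± 0.11), MΦ_M0 (-1.85 ± 0.24) and Mreg_+LPS (-2.10 ± 0.29), again each overlapping the next. Tsc22d3 spanned 4.01, with MΦ_M2c alone at the top (5.87 ± 0.09). Mreg_+LPS (4.52 ± 0.48), Mreg (4.41 ± 0.19), Mreg_no IFN-γ (4.20 ± 0.31), Monocytes (4.03 ± 0.28) and Mreg_unpurified (3.87 ± 0.42) came next and overlapped in turn. The MΦ_M0 (2.88 ± 0.23), MΦ_M2a (2.86 ± 0.25), MΦ_M2b (2.82 ± 0.20), MΦ_IFN-γ (2.58 ± 0.08) and Mo-DC (2.26 ± 0.45) means lay above MΦ_M1 (1.86 ± 0.22). For both genes the dexamethasone group stood above every other group, and the Mreg groups stood above the MΦ groups without dexamethasone, except Mreg_+LPS for Fkbp5.

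Per1 was highest in Mreg_+LPS (3.54 ± 0.11), Monocytes (3.25 ± 0.80) and MΦ_M2c (3.02 ± 0.03), which overlapped in turn. It then stood at 2.22 ± 0.13 in Mreg_no IFN-γ, 2.12 ± 0.10 in Mreg, 1.87 ± 0.09 in MΦ_M1 and 1.79 ± 0.16 in Mreg_unpurified. The remaining groups lay between 0.61 ± 0.10 in Mo-DC and 0.88 ± 0.06 in MΦ_M0. Dusp1 was highest in MΦ_M1 (4.84 ± 0.13), Monocytes (4.68 ± 0.59) and MΦ_M2c (4.38 ± 0.35). The 4 Mreg groups followed between 3.41 ± 0.39 in Mreg_unpurified and 3.84 ± 0.19 in Mreg_+LPS, each overlapping the next. MΦ_M2b (2.70 ± 0.27), MΦ_M0 (2.70 ± 0.12) and MΦ_M2a (2.54 ± 0.25) lay apart from MΦ_IFN-γ (1.65 ± 0.33) and Mo-DC (1.57 ± 0.46). Zfp36 was highest in Monocytes (5.23 ± 0.33) and then in MΦ_M1 (4.08 ± 0.13), both clear of the next group, and the other 10 groups overlapped in turn between 2.19 ± 0.17 in Mo-DC and 3.06 ± 0.21 in MΦ_M2a.

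Klf9 separated the groups into high and low. It ran without a break from Mreg_+LPS (2.76 ± 0.42) through Mo-DC (2.50 ± 0.15), MΦ_M2c (2.47 ± 0.14), Mreg_no IFN-γ (2.16 ± 0.49), Mreg (1.87 ± 0.53), Mreg_unpurified (1.66 ± 0.64) and MΦ_M2a (1.58 ± 0.21) to Monocytes (1.43 ± 0.76). MΦ_M0 stood alone (0.02 ± 0.22), above MΦ_M1 (-1.35 ± 0.17), MΦ_M2b (-1.38 ± 0.21) and MΦ_IFN-γ (-1.87 ± 0.20). The 3 lowest groups were the 3 MΦ groups given IFN-γ. Ddit4 was the gene closest to a single-group pattern, with MΦ_M2c at 7.13 ± 0.40, Mreg_+LPS next at 2.97 ± 0.23, and the other 10 groups overlapping in turn between 1.56 ± 0.14 in MΦ_M1 and 2.24 ± 0.35 in Mreg_no IFN-γ.

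Sgk1 was highest in Mreg_+LPS (7.37 ± 0.47), clear of MΦ_M2a (5.19 ± 0.83) and Mo-DC (4.94 ± 0.30). Monocytes (4.23 ± 0.38), Mreg_no IFN-γ (4.17 ± 0.89), MΦ_M2c (3.57 ± 0.08), MΦ_M1 (3.45 ± 0.76) and MΦ_M0 (3.29 ± 0.18) overlapped in turn. Mreg_unpurified (2.47 ± 0.54), Mreg (2.02 ± 0.76), MΦ_IFN-γ (2.01 ± 0.16) and MΦ_M2b (1.91 ± 0.11) were lowest. Glul was highest in Mreg_no IFN-γ (5.57 ± 0.47), clear of MΦ_M2c (4.34 ± 0.20), Mreg_unpurified (3.94 ± 0.53), Mreg (3.70 ± 0.28) and Monocytes (3.08 ± 0.46). MΦ_M0 (2.24 ± 0.14), Mreg_+LPS (2.05 ± 0.14) and MΦ_M2a (1.87 ± 0.66) followed, then Mo-DC (1.15 ± 0.14), MΦ_M2b (0.54 ± 0.18), MΦ_IFN-γ (-0.04 ± 0.17) and MΦ_M1 (-0.06 ± 0.09). Cd163 was highest in MΦ_M2c (0.17 ± 0.29), clear of Monocytes (-1.59 ± 1.45) and Mreg_no IFN-γ (-2.09 ± 0.87). MΦ_M0 (-3.37 ± 0.69) and Mreg (-3.74 ± 0.92) were above background on all arrays and Mreg_unpurified (-3.46 ± 2.26) on 2. It was above background on 1 array each of Mo-DC, MΦ_M1, MΦ_M2a and MΦ_IFN-γ, and on none of Mreg_+LPS and MΦ_M2b.

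Where a gene had several kept probes, their differences under dexamethasone were close. For Fkbp5 the 3 probes gave log2 differences of 5.72, 5.38 and 5.75 in MΦ_M2c against MΦ_M0, and for Tsc22d3 they gave 2.99, 3.04 and 2.83. Over the 12 group means, the kept probes of 1 gene correlated at 0.93 to 1.00, values that share the same arrays. The probe of Sgk1 left out as dim correlated at 0.30 with the one used and differed by 0.03 in MΦ_M2c against MΦ_M0.

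The genes whose group means followed each gene most closely were found by Pearson correlation over the 12 group means, a description only, since all genes share the arrays. Fkbp5 ran nearest to Gpx3 (r = 0.93) and Rnf122 (r = 0.92), Tsc22d3 to Ypel3 (r = 0.92) and Osbpl9 (r = 0.90), and Per1 to Kif9 (r = 0.93). Dusp1 ran nearest to Smad6 (r = 0.88) and Olfr195 (r = 0.86), and Klf9 to Dmxl2 (r = 0.89) and Fam110c (r = 0.88). Ddit4 ran nearest to Hoxd13 and Hhipl1 (both r = 0.95), each above background on 3 of 36 arrays. Zfp36 ran nearest to Msl1 (r = 0.95) and Nme6 (r = 0.94), and Sgk1 to Zbtb33 (r = 0.93) and Pyurf (r = 0.92). Glul ran nearest to Stard5 (r = 0.90) and Pam (r = 0.88), and Cd163 to Serinc5 (r = 0.92) and Apoc2 (r = 0.90). None of the 10 genes was among the 2 nearest of another.

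The receptor and its partners were looked at beside the targets. Nr3c1, the gene of the glucocorticoid receptor, was at 1.69 ± 0.13 in MΦ_M2c, against 2.11 ± 0.07 in MΦ_M0 (log2 -0.42 ± 0.15, adjusted p = 0.04996). It was at 2.18 ± 0.13 in Mreg_+LPS, against 3.68 ± 0.04 in MΦ_M1 (log2 -1.50 ± 0.15, adjusted p = 3.96e-09). Hsd11b1 encodes the enzyme that regenerates active glucocorticoid from its inactive form. It was higher in human serum, at -1.35 ± 0.49 in Mreg_no IFN-γ, against -3.42 ± 0.19 in MΦ_M0 (log2 2.08 ± 0.37, adjusted p = 9.09e-05). The differences were 2.06 ± 0.37 in Mreg against MΦ_IFN-γ (adjusted p = 0.000114) and 1.76 ± 0.37 in Mreg_+LPS against MΦ_M1 (adjusted p = 0.000224). In MΦ_M2c against MΦ_M0 it differed by 0.86 ± 0.37 (adjusted p = 0.11), and in MΦ_M0 against Monocytes it fell by 8.53. Fkbp4, the co-chaperone that favours hormone binding, differed by -0.33 in MΦ_M2c against MΦ_M0 (adjusted p = 0.0543) and rose by 0.45 in Mreg against MΦ_IFN-γ and 0.55 in Mreg_+LPS against MΦ_M1. Of 16 receptor, chaperone and cofactor genes measured, 2 rose and 5 fell in MΦ_M2c against MΦ_M0, while 9.94% of all genes rose and 20.7% changed. Ncoa1, a coactivator, was up 1.13 and Hsp90aa1 down 0.93 on the log2 scale.

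Other genes known to be induced by glucocorticoids moved in both directions. The counts of this and the following lists stand beside the 20.7%, 30.9%, 28.0% and 54.5% of all genes that changed in the 4 comparisons. Of 27 measured, 13 rose and 5 fell in MΦ_M2c against MΦ_M0 (median log2 0.58), led among genes above background in both groups by Il1r2, a decoy receptor for IL-1 (log2 4.85), F13a1, a coagulation factor subunit (log2 3.92), and Thbs1, thrombospondin (log2 3.81). In Mreg_no IFN-γ against MΦ_M0, 12 rose and 3 fell (median 0.68), in Mreg against MΦ_IFN-γ 13 rose and 3 fell (median 0.51), and in Mreg_+LPS against MΦ_M1 11 rose and 7 fell (median 0.19). Angptl4, a lipase inhibitor also known to answer PPARs and hypoxia, was higher in the human-serum culture, with log2 differences of 3.26, 3.92 and 6.04 in those 3 comparisons. It averaged 1.36 ± 0.32 in MΦ_M2c, against 2.71 ± 0.19 in MΦ_M0, and was thus lower with dexamethasone (log2 -1.35, adjusted p = 0.0157). Cxcr4, a chemokine receptor, was higher by 6.28 in Mreg_+LPS against MΦ_M1, and Il7r, the IL-7 receptor, by 3.58.

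Of 18 inflammatory genes known to be repressed by glucocorticoids, 4 fell and 1 rose in MΦ_M2c against MΦ_M0 (median log2 -0.66). Tnf fell by 2.46 and the monocyte attractant Ccl2 by 1.75 on the log2 scale, and Vcam1, an adhesion molecule, rose by 5.22, with 1 of 3 MΦ_M0 arrays above background. In Mreg_no IFN-γ against MΦ_M0, 7 fell and 4 rose (median -0.52), with Ccl4 down 3.10, Vcam1 up 3.20, again with 1 of 3 MΦ_M0 arrays above background, and Mmp9, a matrix protease, up 2.58. In Mreg against MΦ_IFN-γ, 11 fell and 1 rose (median -1.64), led by the chemokines Cxcl10, Cxcl9 and Ccl5, which fell by 5.18, 4.81 and 4.13. In Mreg_+LPS against MΦ_M1, 11 fell and none rose (median -2.72), led by Il6, Cxcl10 and Il1b, which fell by 6.13, 5.77 and 5.60.

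Other pathways known to drive some of the 10 genes were counted as well. Of 12 hypoxia response genes, 6 fell and none rose in MΦ_M2c against MΦ_M0 (median log2 -0.64), among them Pdk1, Slc2a1 and Vegfa, which fell by 1.52, 1.24 and 1.14. In Mreg_no IFN-γ against MΦ_M0 and in Mreg against MΦ_IFN-γ, 9 rose and none fell (medians 1.00 and 0.77), with the oxygen sensor Egln3 up 6.05 in the first and 6.83 in the second, where 1 of 3 MΦ_IFN-γ arrays was above background. In Mreg_+LPS against MΦ_M1, 7 rose and 1 fell (median 0.74). Of 12 circadian clock genes other than Per1, 2 rose and 1 fell in MΦ_M2c against MΦ_M0, a share close to that of all genes. The repressor Nr1d1 was up 1.98, Arntl up 1.22 and Cry1 down 1.30. In the 3 human-serum comparisons 6, 7 and 9 rose and none fell, and Nr1d1 was higher by 2.33, 1.86 and 5.40.

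Of 14 immediate-early genes, which answer growth factors and stress within minutes, 1 rose and 5 fell in MΦ_M2c against MΦ_M0, with Egr2 down 4.52. In the 3 human-serum comparisons 3 rose and 1 fell, 5 rose and 3 fell, and 2 rose and 6 fell. In the first and the last the share that changed was close to that of all genes. Fosl1 was up 3.37 in the first, and Egr1 was down 5.00 and Myc up 4.89 in the last. Of 22 relatives of the 10 genes by sequence family, 3 rose and 4 fell in MΦ_M2c against MΦ_M0, with Zfp36l1, a relative of Zfp36, up 1.51 and Dusp4, a relative of Dusp1, down 2.89. In the 3 human-serum comparisons 5, 7 and 7 rose and 2, 2 and 8 fell, and in the first the share that changed was close to that of all genes. Dusp4 rose by 2.13 in Mreg_no IFN-γ against MΦ_M0 and by 4.64 in Mreg against MΦ_IFN-γ.

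**Figure D4:**
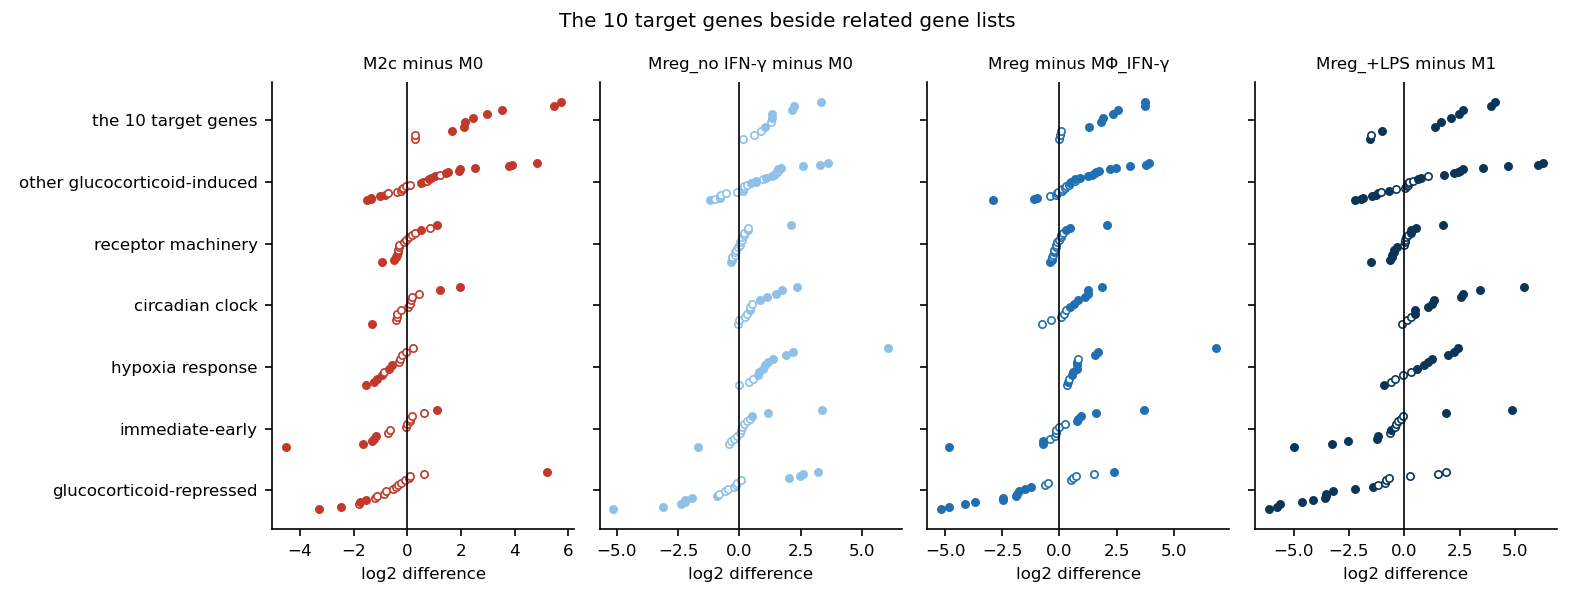
Log2 differences (horizontal axis) of the 10 genes and of 6 related gene lists (rows) in the 4 comparisons (panels). Each point is a gene, filled where it passed an adjusted p of 0.05, sorted within its row. In MΦ_M2c against MΦ_M0 the 10 genes had a median of 2.29 and the hypoxia genes one of -0.64, while in Mreg_no IFN-γ against MΦ_M0 these medians were 1.30 and 1.00.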

How the data were processed

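RNA of 36 samples (12 groups of 3, from 0.5 µg RNA with a RIN of at least 6) was measured on 1-colour Agilent mouse arrays. Per the file headers, the deposited intensity values are gProcessedSignal, background-subtracted by Agilent Feature Extraction 10.5.1.1. The authors' deposited series table holds log2 values of the same arrays, with normalization not stated in the sources used here; against the scanner values it correlated at 0.997 or more, its column medians were 4.33 to 4.38, and it served as an alternative. Control spots were left out, spots of a probe averaged, and log2 of the signal set relative to the 75th percentile of each array (320 to 648). This percentile was lower with LPS, at 320 to 343 in Mreg_+LPS against 441 to 579 in Mreg. It was 413 to 436 in MΦ_M1 against 541 to 589 in MΦ_IFN-γ, so equal signals gave higher levels with LPS. A probe was kept if 3 or more of the 36 arrays had it well above background, and the kept probe with the highest mean stood for its gene. All 12 groups were fitted together with limma 3.58.1 in R 4.3.3, adjusting over all genes, and tested on simulated data.

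The text names the 10 members, their 2 most alike genes each (1 of them is not reported here), Nr3c1, Hsd11b1 and Fkbp4, and genes of each list among up to 3 called ones with the largest differences, above background on at least 1 array of both groups. The members and lists were chosen with earlier results of these data known. For arrays of compared groups with the same replicate number, the deviations from their group means were correlated over all genes. These correlations were above 0.1 for every pair in 8 of 14 comparisons (0.017 to 0.564). In MΦ_M2c against MΦ_M0 they were 0.32, 0.171 and 0.276. Replicate 1 of every group was scanned on a different day from the others, and its part in these values was not tested.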

Additional observations from a re-analysis of the deposited data

Results flagged for a closer look

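The difference between the LPS responses of the human-serum culture (Mreg_+LPS against Mreg) and the fetal calf serum culture (MΦ_M1 against MΦ_IFN-γ) passed the interaction test for 6 of the 10 genes, on a background of 35.0% of all genes. On the log2 scale it was 3.91 for Sgk1 and 1.45 for Ddit4, whose responses were larger in the human-serum culture. It was -2.89 for Dusp1 and -1.60 for Zfp36, whose responses were larger in the fetal calf serum culture. For Glul it was -1.62, from a fall in the human-serum culture (log2 -1.65) beside -0.03 in the other. For Cd163 it was -4.07, a fitted value that is no measured size, since the gene was not above background on any Mreg_+LPS array. The Cd163 result passed in 16 of 22 settings and was -0.66 with normexp background correction. MΦ_M1 and MΦ_IFN-γ lay on different slides, so slide cannot be told apart from the differences given here.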

How the results depend on the processing

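No value of the 10 genes changed direction among called results under any alternative. Of 160 values for the 10 genes, 154 kept their side of the threshold with normexp background correction, 157 with quantile normalization, 157 with the authors' deposited series table, 158 without the filter on dim probes, 149 with arrays of a single scan day, 153 with a fit of the compared groups alone and 154 with slide as a random block. Normexp left 3092 genes called in Mreg_no IFN-γ against MΦ_M0 (5440 otherwise) and 3160 in Mreg against MΦ_IFN-γ (4930 otherwise). The count of the 10 genes called became 1 with a single scan day in MΦ_M2a against MΦ_M0, 0 with a single scan day or only the compared groups and 2 with slide as a fixed block (chosen after seeing the data) in MΦ_M2b against MΦ_IFN-γ, 1 with only the compared groups in Mreg against Mreg_no IFN-γ, 1 with slide as a random block in Mreg_unpurified against Mreg, and 3 with a single scan day in MΦ_IFN-γ against MΦ_M0. The cause was not tested. A single scan day left out replicate 1 of every group, so those fits also had fewer arrays. With the replicate number as a block, the 4 main comparisons called 8, 6, 6 and 9 of the 10 genes and 4351, 6357, 5780 and 10209 of all genes, and the IFN-γ interaction called 1, as it did with slide as a random block. The block changed 4 of the 160 calls, 1 lost (Cd163 in Mreg against MΦ_IFN-γ, adjusted p = 0.052) and 3 gained (Sgk1 in MΦ_M0 against Monocytes, adjusted p = 0.0443, and the Klf9 and Tsc22d3 interactions given above), and no other.

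Leaving out 1 array at a time, 8 to 8, 6 to 6, 6 to 7 and 9 to 9 of the 10 genes were called in the 4 main comparisons, and 2697 to 3068, 4261 to 4852, 3664 to 4594 and 8845 to 9285 of all genes. The range was 0 to 1 in MΦ_M2b against MΦ_IFN-γ, 3 to 5 in MΦ_IFN-γ against MΦ_M0 and 0 to 1 for the IFN-γ interaction. Of 1080 such values, 1044 kept their side, 31 lost it and 5 gained it. Signal over background limits Cd163, which was dim in most groups.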
